A study of Mus musculus with 6 samples.

Results

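The genes described here are the Wnt ligands, their Frizzled and other receptors, the secreted antagonists, the intracellular regulators and feedback genes, and the TCF/LEF transcription factors. They were chosen by symbol, by a rule that holds no expression values, but with earlier results of these data known. The rule took every row whose name begins with Wnt or Fzd and a digit, and a list of further named genes. It gave 61 of the 55453 symbols in the deposited count table. The groups are 3 libraries labelled PP2Ac knockout (KO) and 3 labelled wild type (WT), all poly(A)-selected RNA of SB28, a mouse glioma cell line, with a C57BL/6 strain label. PP2Ac is the catalytic subunit of protein phosphatase 2A. The labels do not say how the knockout was made, whether it is a single clone, or whether libraries of a group were separate cultures, so the p-values may measure only technical spread. The design text of the series places the deletion in host myeloid cells instead, through LysM-driven Cre and floxed alleles in mice carrying SB28 tumours at 18 days, and the labels do not settle which description holds for these libraries.

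Wnt proteins are secreted lipid-modified ligands that bind a Frizzled receptor together with the co-receptors Lrp5 or Lrp6. Binding halts the destruction complex of Axin, Apc, casein kinase 1 and Gsk3, so that beta-catenin escapes breakdown and acts with TCF/LEF factors in the nucleus, while other ligands signal through Ror receptors and planar polarity proteins. PP2A has been found in the destruction complex, bound to Axin and, through B56 subunits, to Apc. In the brain, Wnt7a and Wnt7b are known as ligands that shape the vessels of the blood-brain barrier.

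Library totals ranged from 38735864 to 49344079 counts. CPM is the usual depth-scaled read count, here with TMM factors applied to library size, and values in lists of 3 are in the order of libraries 1, 2 and 3. Fold changes are KO over WT, and each adjusted p is that of the quasi-likelihood test in edgeR, corrected by the Benjamini-Hochberg procedure across the 14877 genes tested. Ppp2ca, the targeted gene, had 217, 187 and 193 CPM in the KO libraries, against 274, 244 and 247 CPM in the WT libraries, a small fall (log2 fold change -0.36, SE 0.08, adjusted p = 0.00377). A total per gene does not show which exons were read. Exons of 9430098F02Rik and Gm24157 on the opposite strand also cover 41.3% of the Ppp2ca exon bases, and the strand setting of the counting is not given. The Ppp2ca total is therefore a weak check of the labels. Of marker genes for other cell types, 8 of 8 lymphocyte, 4 of 4 red cell and 11 of 13 myeloid genes stayed under 1 CPM in every library. The myeloid markers Adgre1, C1qa, C1qb and Tyrobp had 0 counts, and the myeloid sum, mostly Tmem119, was 42.2 to 52.1 CPM in KO and 87.1 to 107 CPM in WT libraries. Of 11 glial and glioma genes, Vim, Nes and Sox2 led a sum of 2092 to 2220 CPM in KO and 5198 to 5419 CPM in WT libraries, and Olig1, Olig2 and Sox10 had 0 counts. Endothelial genes summed to 537 to 564 CPM in KO and 514 to 551 CPM in WT libraries, nearly all Cdh5 and Flt1, with Cldn5 at 0. Within this list Kdr rose, at 7.78 ± 0.402 CPM in KO and 1.65 ± 0.331 CPM in WT libraries (mean ± SD, n = 3). Tek fell, at 0.295 ± 0.0360 CPM in KO and 1.40 ± 0.266 CPM in WT libraries. Cdh5, Flt1 and Pecam1 did not pass. Neuronal genes summed to at most 1.35 CPM in KO and 2.09 CPM in WT libraries. Of these, Snap25 had 18 counts in KO and 178 in WT libraries, while Gad1 had 56 in KO and 1 in WT libraries. Fibroblast genes summed to 1595 to 2229 CPM in KO and 2664 to 3612 CPM in WT libraries, but they did not move together. Col1a2 fell, at 15.0 ± 2.08 CPM in KO and 855 ± 114 CPM in WT libraries (mean ± SD, n = 3), Dcn rose, at 32.7 ± 4.54 CPM in KO and 1.28 ± 0.351 CPM in WT libraries, Pdgfrb rose, at 129 ± 7.62 CPM in KO and 81.2 ± 6.84 CPM in WT libraries, and Col1a1 and Col3a1 did not pass. Markers also parted within the myeloid list, where Tmem119 fell and Cd68 rose. Lyz2, below the filter on low counts, had 44 counts in KO and 1 in WT libraries. Markers of the glial list parted too, where Vim, Nes, Sox2, Cspg4, S100b and Aldh1l1 fell and Pdgfra rose. The largest of these falls was that of Cspg4, at 0.127 ± 0.0277 CPM in KO and 8.66 ± 1.35 CPM in WT libraries. The part of these differences in the results was not tested, and in bulk RNA fewer cells of a type cannot be told apart from less RNA per cell.

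Among the members, the secreted antagonists fell, most Frizzled and other receptors fell, and the 2 largest rises among the members tested were those of the transcription factor gene Lef1 and the feedback gene Nkd2. Of the 61 members, 41 passed the filter on low counts and 20 did not. Of these 41, 34 (82.9%) passed the test, against 64.0% of all genes tested. The members called were 9 higher and 25 lower in KO, where all genes gave 31.9% higher and 32.1% lower. The median log2 fold change of the 41 was -0.65, and that of all genes -0.01. Tested against a fold change of 1.5, 4 members were higher and 15 lower, together 46.3%, against 26.7% of all genes. The KO and WT libraries did not overlap for 34 of the 41, or 82.9%, against 68.3% of all genes.

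**Figure D1:**
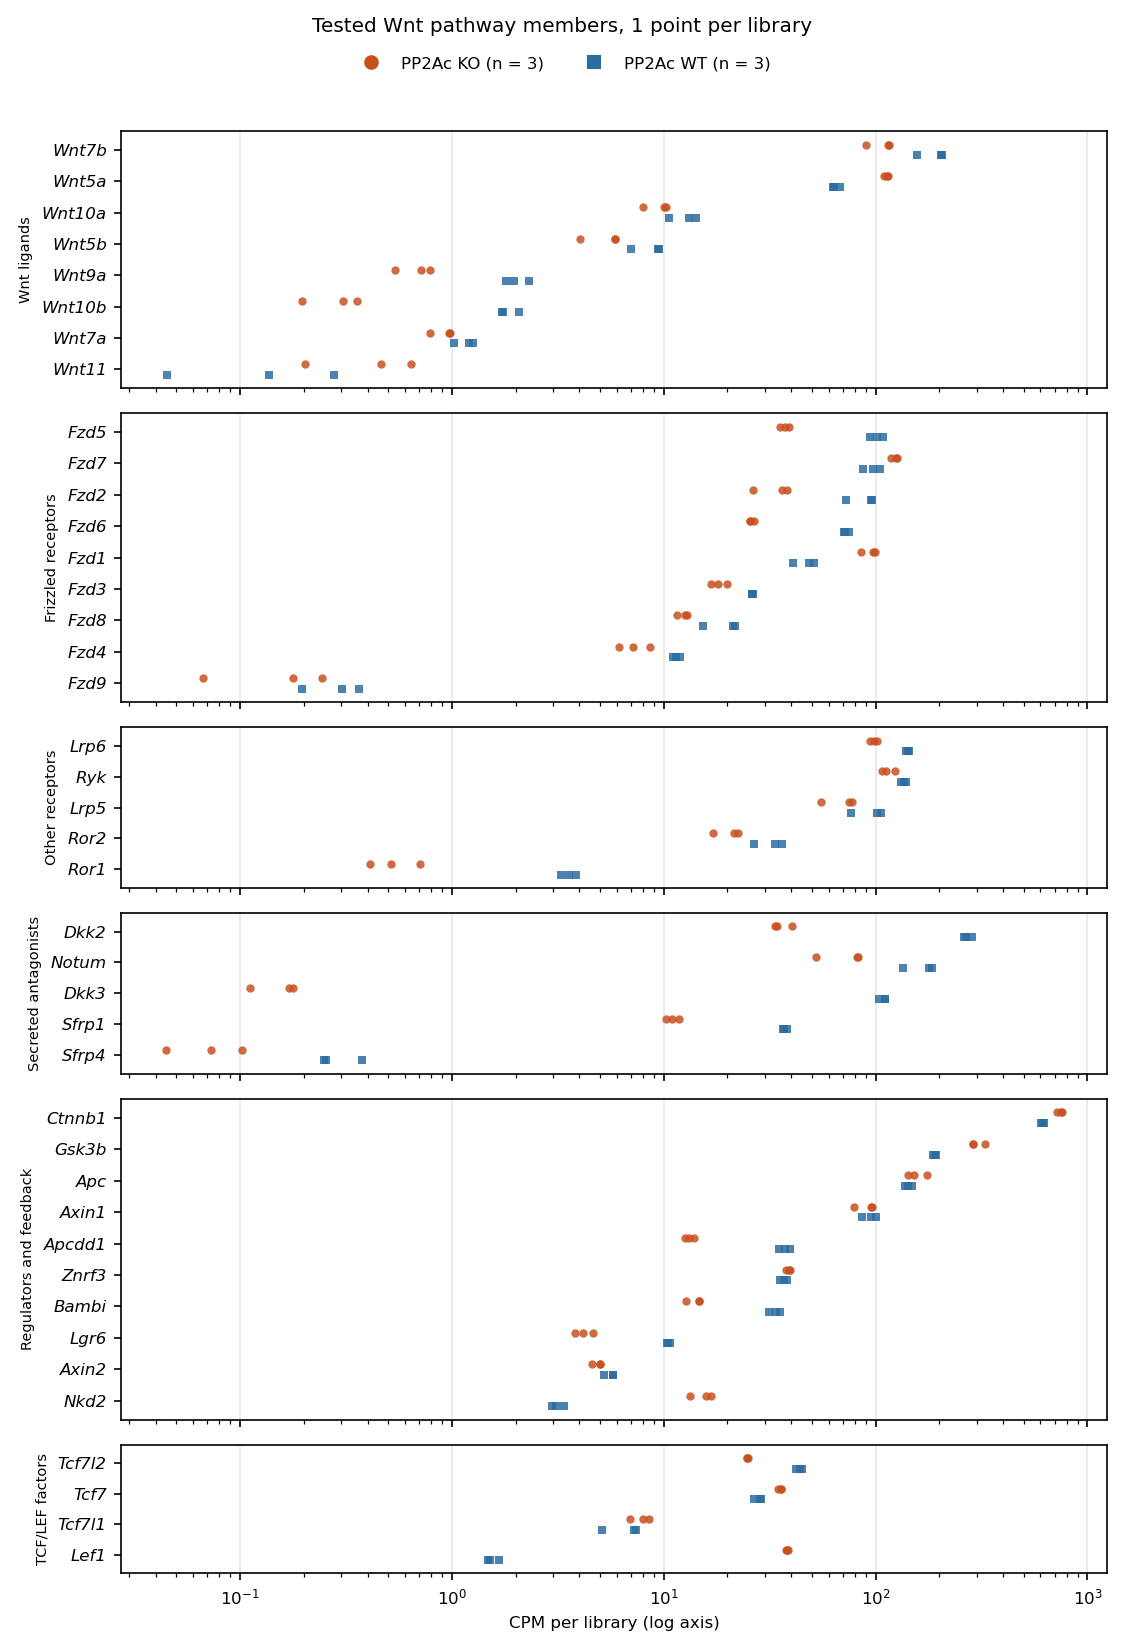
CPM of the 41 tested members in each library on a log axis, by role, with circles for the 3 KO libraries and squares for the 3 WT libraries. Lef1 and Dkk3 show the widest gaps between the groups, and Axin1, Apc and Znrf3 overlap.

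The leading pair of Wnt ligand messages moved in opposite directions. Wnt7b, the most abundant ligand message, had 89.6, 116 and 114 CPM in the KO libraries, against 157, 205 and 204 CPM in the WT libraries. Library 1 was the lowest of each group, and all KO libraries lay below all WT libraries (log2 fold change -0.83, SE 0.13, adjusted p = 0.000497). The Wnt7b difference did not pass the test against 1.5-fold, where its adjusted p was 0.0505. Wnt5a, a ligand of the beta-catenin-independent branch, had 115, 109.7 and 113 CPM in the KO libraries, against 63.3, 68.1 and 63.7 CPM in the WT libraries. It rose, with 3 closely spaced libraries on each side (log2 fold change 0.79, SE 0.06, adjusted p = 8.02e-06). Its paralog Wnt5b had 4.01, 5.86 and 5.90 CPM in the KO libraries, against 7.01, 9.46 and 9.39 CPM in the WT libraries and fell (log2 fold change -0.71, SE 0.18, adjusted p = 0.00651).

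The canonical ligands Wnt10a, Wnt10b and Wnt9a fell as well. Wnt10b had 0.359, 0.195 and 0.307 CPM in the KO libraries, against 2.08, 1.72 and 1.74 CPM in the WT libraries, with every KO library under every WT library (log2 fold change -2.67, SE 0.24, adjusted p = 1.43e-05). Wnt9a had 0.784, 0.537 and 0.715 CPM in the KO libraries, against 1.96, 1.79 and 2.32 CPM in the WT libraries, again without overlap (log2 fold change -1.56, SE 0.20, adjusted p = 0.000145). Wnt10a had 7.96, 10.0 and 10.3 CPM in the KO libraries, against 10.6, 14.2 and 13.2 CPM in the WT libraries, which left KO 3 just under WT 1 (log2 fold change -0.42, SE 0.14, adjusted p = 0.0269). The Wnt10a call was lost without KO 1 (adjusted p = 0.065), WT 2 (0.104) or WT 3 (0.0748), over alternatives that ran from 5.89e-05 to 0.104. Wnt11, another ligand of the beta-catenin-independent branch, was scarce, at 0.202 to 0.639 CPM in KO and 0.0454 to 0.277 CPM in WT libraries. Its groups overlapped and its call was weak (log2 fold change 1.5, SE 0.58, adjusted p = 0.0472), lost without KO 2, KO 3, WT 1 or WT 2 (adjusted p 0.091, 0.163, 0.1 and 0.137) and with upper-quartile scaling (0.0555), while the lowest value over its alternatives was 0.00388. Wnt7a, at 0.784 to 0.976 CPM in KO and 1.02 to 1.26 CPM in WT libraries, did not pass (log2 fold change -0.35, SE 0.19, adjusted p = 0.139). In all, 2 of 8 tested ligands rose, 5 fell and 1 did not pass, and the median log2 fold change was -0.57. The share called was 87.5%, against 64.0% of all genes. Short stretches of Wnt7b (6.61% of exon bases) and Wnt5a (4.58%) lie over exons of AU022754 and Gm2670 on the other strand.

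Levels of different genes are compared here as CPM per kilobase of merged exon. On that scale Wnt7b led the ligands in both groups, at 21.7 ± 2.98 in KO and 38.5 ± 5.58 in WT libraries (mean ± SD, n = 3), and Wnt5a came second, at 14.4 ± 0.332 in KO and 8.31 ± 0.340 in WT libraries. Wnt7b held 47.6% to 53.0% of the summed ligand level in KO libraries, against 65.5% to 68.8% in WT libraries. The share of Wnt5a was 31.4% to 38.2% in KO and 13.4% to 16.5% in WT libraries, so the ligand message was more evenly split between these genes in KO libraries. Wnt10a and then Wnt5b followed in both groups, and none of these 4 overlapped its neighbour in the order. Below them, Wnt11 and Wnt10b overlapped in KO libraries, as did Wnt9a and Wnt10b in WT libraries. The sum over all ligands was 38.4 to 45.0 in KO and 49.0 to 61.5 in WT libraries.

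The other 11 ligands were below the filter. Wnt3, Wnt3a and Wnt9b had 0 counts in all 6 libraries. A count of 0 over a group allows up to 3 counts, or 0.0240 CPM in KO and 0.0222 CPM in WT libraries, and such limits cover counting error only. Wnt16 had 0 counts in KO and 26 in WT libraries, at least 8.02-fold lower in KO if the group is set to that floor. Wnt2 had 2 counts in KO and 31 in WT libraries, a WT over KO ratio of 14.3 (95% counting interval 3.65 to 124). Wnt4 had 4 counts in KO and 27 in WT libraries, a WT over KO ratio of 6.24 (95% counting interval 2.18 to 24.6). Wnt2b, with 11 counts in KO and 13 in WT libraries, and Wnt6, with 8 counts in KO and 4 in WT libraries, had intervals of the ratio that included 1, as did Wnt1, with 8 counts in KO and 2 in WT libraries. Wnt8a and Wnt8b had at most 3 counts in a group.

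Several ligand genes lie side by side in the mouse genome, and of each expressed pair only 1 gene had more than 8 counts in a group. There were 4 pairs of ligand genes separated by less than 100000 bases (positions from GENCODE release M21 on GRCm38). Wnt10a (chromosome 1, 74791516 to 74804179, plus strand) had 1169 counts in KO and 1690 in WT libraries, and its neighbour Wnt6 (chromosome 1, 74771892 to 74785322, plus strand), 6193 bases away, had 8 in KO and 4 in WT libraries. Wnt9a (chromosome 11, 59306928 to 59333552, plus strand) had 85 counts in KO and 271 in WT libraries, beside Wnt3a with none at 16175 bases. Wnt10b (chromosome 15, 98770712 to 98778150, minus strand) had 36 counts in KO and 251 in WT libraries, and Wnt1, 11706 bases away, had 8 in KO and 2 in WT libraries. In the remaining pair, Wnt3 and Wnt9b on chromosome 11, neither gene had a count.

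**Figure D2:**
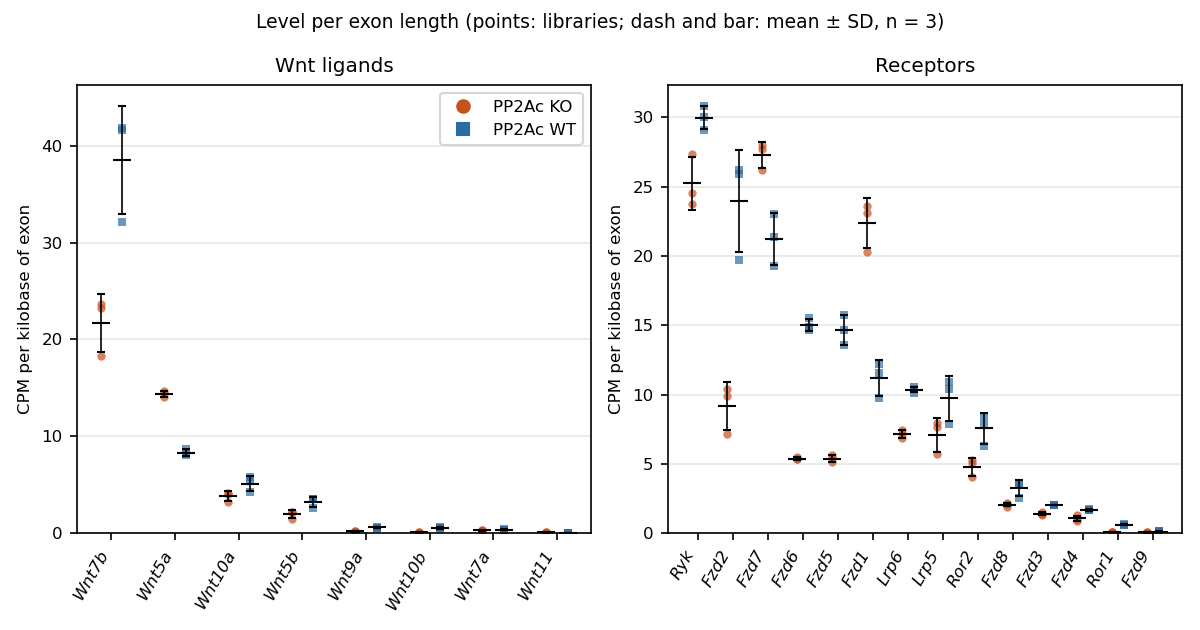
Level of the tested ligands (left) and receptors (right) as CPM per kilobase of exon, with points for the 3 KO (circles) and 3 WT (squares) libraries and a dash and bar for mean ± SD. Wnt7b leads the ligands in both groups, while Fzd7 and Fzd1 stand above Fzd2 in KO libraries.

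Frizzled receptors, which bind Wnt proteins at the cell surface, were lower in KO for 6 of 9 tested genes, higher for 2 and not called for 1. Their median log2 fold change was -0.65, and 88.9% were called, against 64.0% of all genes. Fzd6 had 25.7, 26.6 and 25.7 CPM in the KO libraries, against 74.7, 71.6 and 70.7 CPM in the WT libraries, and the groups were far apart relative to their spread (log2 fold change -1.48, SE 0.07, adjusted p = 2.14e-07). Fzd5 had 35.3, 37.4 and 39.0 CPM in the KO libraries, against 93.9, 109 and 101 CPM in the WT libraries, likewise without overlap (log2 fold change -1.44, SE 0.08, adjusted p = 7.01e-07). Fzd2 had 26.3, 38.2 and 36.2 CPM in the KO libraries, against 72.1, 95 and 96.1 CPM in the WT libraries, with library 1 the lowest in each group (log2 fold change -1.39, SE 0.16, adjusted p = 6.29e-05). These were the 3 Frizzled genes lower past 1.5-fold, and exons of Gm38058 cover 17.8% of the Fzd5 exon bases on the other strand, where Gm38058 had 10 counts in each group.

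Fzd1 and Fzd7, close paralogs of Fzd2, went the other way. Fzd1 had 85.1, 97.0 and 99.2 CPM in the KO libraries, against 40.9, 51.2 and 48.6 CPM in the WT libraries and was 2.0-fold higher in KO (log2 fold change 1.0, SE 0.10, adjusted p = 3.03e-05). Fzd7 had 119, 127 and 125 CPM in the KO libraries, against 87.3, 104 and 97.0 CPM in the WT libraries, a smaller rise that did not pass 1.5-fold (log2 fold change 0.36, SE 0.08, adjusted p = 0.00337). Per kilobase, Fzd7 and Fzd1 were the first and second Frizzled messages in KO libraries, at 27.3 ± 0.947 and 22.3 ± 1.80 CPM per kilobase. In WT libraries Fzd2 (24.0 ± 3.69) and Fzd7 (21.2 ± 1.89) led and overlapped, and Fzd1 (11.2 ± 1.28) lay below Fzd6 and Fzd5 as well. Fzd1 held 29.4% to 30.7% of the summed Frizzled level in KO libraries, against 11.6% to 12.3% in WT libraries, and Fzd2 held 10.4% to 13.6% in KO and 23.4% to 27.3% in WT libraries. Fzd5 and Fzd6 overlapped in level in both groups.

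None of the remaining Frizzled genes passed 1.5-fold. Fzd3, a receptor best known for axon guidance, had 19.9, 16.7 and 18.0 CPM in the KO libraries, against 26.4, 26.2 and 26.2 CPM in the WT libraries, lower without overlap (log2 fold change -0.53, SE 0.09, adjusted p = 0.000588). Fzd4, the receptor through which Norrin acts on vessels, had 8.60, 6.15 and 7.13 CPM in the KO libraries, against 12, 11.1 and 11.4 CPM in the WT libraries, lower as well (log2 fold change -0.65, SE 0.13, adjusted p = 0.00172). Fzd8 had 11.5, 12.5 and 12.9 CPM in the KO libraries, against 15.4, 21.2 and 21.6 CPM in the WT libraries, with WT 1 the library nearest to the KO group (log2 fold change -0.65, SE 0.14, adjusted p = 0.00245). Fzd9 was at 0.0672 to 0.244 CPM in KO and 0.196 to 0.363 CPM in WT libraries and did not pass (adjusted p = 0.159), and Fzd10 had 0 counts.

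All 5 co-receptors and other Wnt receptors were lower in KO (median log2 fold change -0.53), but only Ror1 passed 1.5-fold. Of all genes tested, 32.1% were called lower. Ror1, a receptor tyrosine kinase for Wnt5a, had 0.515, 0.708 and 0.409 CPM in the KO libraries, against 3.84, 3.58 and 3.27 CPM in the WT libraries, and was 6.53-fold lower (log2 fold change -2.71, SE 0.20, adjusted p = 3.8e-06). Its paralog Ror2, also a Wnt5a receptor, had 17.2, 22.4 and 21.4 CPM in the KO libraries, against 26.7, 36.0 and 33.6 CPM in the WT libraries (log2 fold change -0.66, SE 0.14, adjusted p = 0.00249). No KO library reached the lowest WT library for either gene. Lrp6, a co-receptor of the beta-catenin branch, had 102, 98.0 and 94.3 CPM in the KO libraries, against 139, 144 and 142 CPM in the WT libraries (log2 fold change -0.53, SE 0.06, adjusted p = 8.57e-05). Lrp5, its paralog, had 55.3, 77.4 and 74.5 CPM in the KO libraries, against 76.5, 106 and 101 CPM in the WT libraries, and KO 2 lay above WT 1 (log2 fold change -0.46, SE 0.15, adjusted p = 0.0274). Within libraries of the same number, the KO over WT difference of Lrp5 was -0.47, -0.46 and -0.44 on the log2 scale for numbers 1, 2 and 3. Its call was lost without KO 1 (adjusted p = 0.0503), WT 2 (0.104) or WT 3 (0.0788), over alternatives from 2.29e-09 to 0.104. Ryk, a receptor with an inactive kinase domain, had 124, 108 and 111 CPM in the KO libraries, against 139.6, 136 and 132 CPM in the WT libraries (log2 fold change -0.25, SE 0.07, adjusted p = 0.0152), and lost its call without KO 2 (0.0804) or KO 3 (0.0684), over alternatives from 7.04e-07 to 0.0804. Ryk led this group per kilobase, at 25.2 ± 1.90 in KO and 30.0 ± 0.847 CPM per kilobase in WT libraries, and Lrp5 and Lrp6 overlapped in level in both groups.

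Every tested secreted antagonist was lower in KO, 5 of 5, and each passed the test against 1.5-fold, where 13.2% of all genes were lower past it. Dkk3 (ENSMUSG00000030772.6; chromosome 7, 112116017 to 112159057, minus strand, GRCm38), a divergent member of the Dickkopf family, had 0.112, 0.171 and 0.179 CPM in the KO libraries, against 104, 111 and 111 CPM in the WT libraries. The KO libraries held 19 counts in all against 14623 in WT libraries, a near-complete separation (log2 fold change -9.45, SE 0.13, adjusted p = 6.7e-10). Dkk2, which binds Lrp5 and Lrp6 and can block or weakly activate signalling, had 40.4, 34.4 and 33.6 CPM in the KO libraries, against 286, 266 and 260.1 CPM in the WT libraries, a 7.49-fold lower level in KO (log2 fold change -2.91, SE 0.09, adjusted p = 3.09e-08). Dkk2 stayed well detected in KO libraries, unlike Dkk3.

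Sfrp1, a secreted protein with a Frizzled-like domain that binds Wnt proteins, had 11.8, 10.3 and 10.9 CPM in the KO libraries, against 36.5, 38.3 and 37.1 CPM in the WT libraries, with no overlap (log2 fold change -1.76, SE 0.08, adjusted p = 2.82e-07). Notum, an esterase that removes the lipid from Wnt proteins, had 52.6, 81.4 and 82.3 CPM in the KO libraries, against 134, 185 and 178 CPM in the WT libraries. Library 1 was the lowest of each group, and the groups stayed apart (log2 fold change -1.20, SE 0.18, adjusted p = 0.000384). Exons of Notumos and Myadml2os on the opposite strand cover 38.1% of the Notum exon bases, and since the strand setting of the counting is not given, reads of Notum and Notumos cannot be told apart there. Notumos itself had 53, 65 and 64 counts in KO libraries and 324, 381 and 337 in WT libraries. Sfrp4 was scarce, at 0.0448 to 0.102 CPM in KO and 0.249 to 0.378 CPM in WT libraries (log2 fold change -1.96, SE 0.43, adjusted p = 0.00354). Summed over the 10 antagonist genes, the level was 35.5 to 45.8 CPM per kilobase in KO and 172 to 190.5 in WT libraries. Dkk2 and Notum overlapped at the top in WT libraries, whereas Notum alone held 61.6% to 74.6% of the sum in KO libraries. Dkk1, Dkk4 and Sfrp5 had 0 counts, Sfrp2 had 0 in KO and 1 in WT libraries, and Wif1 had 4 in KO and 6 in WT libraries.

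**Figure D3:**
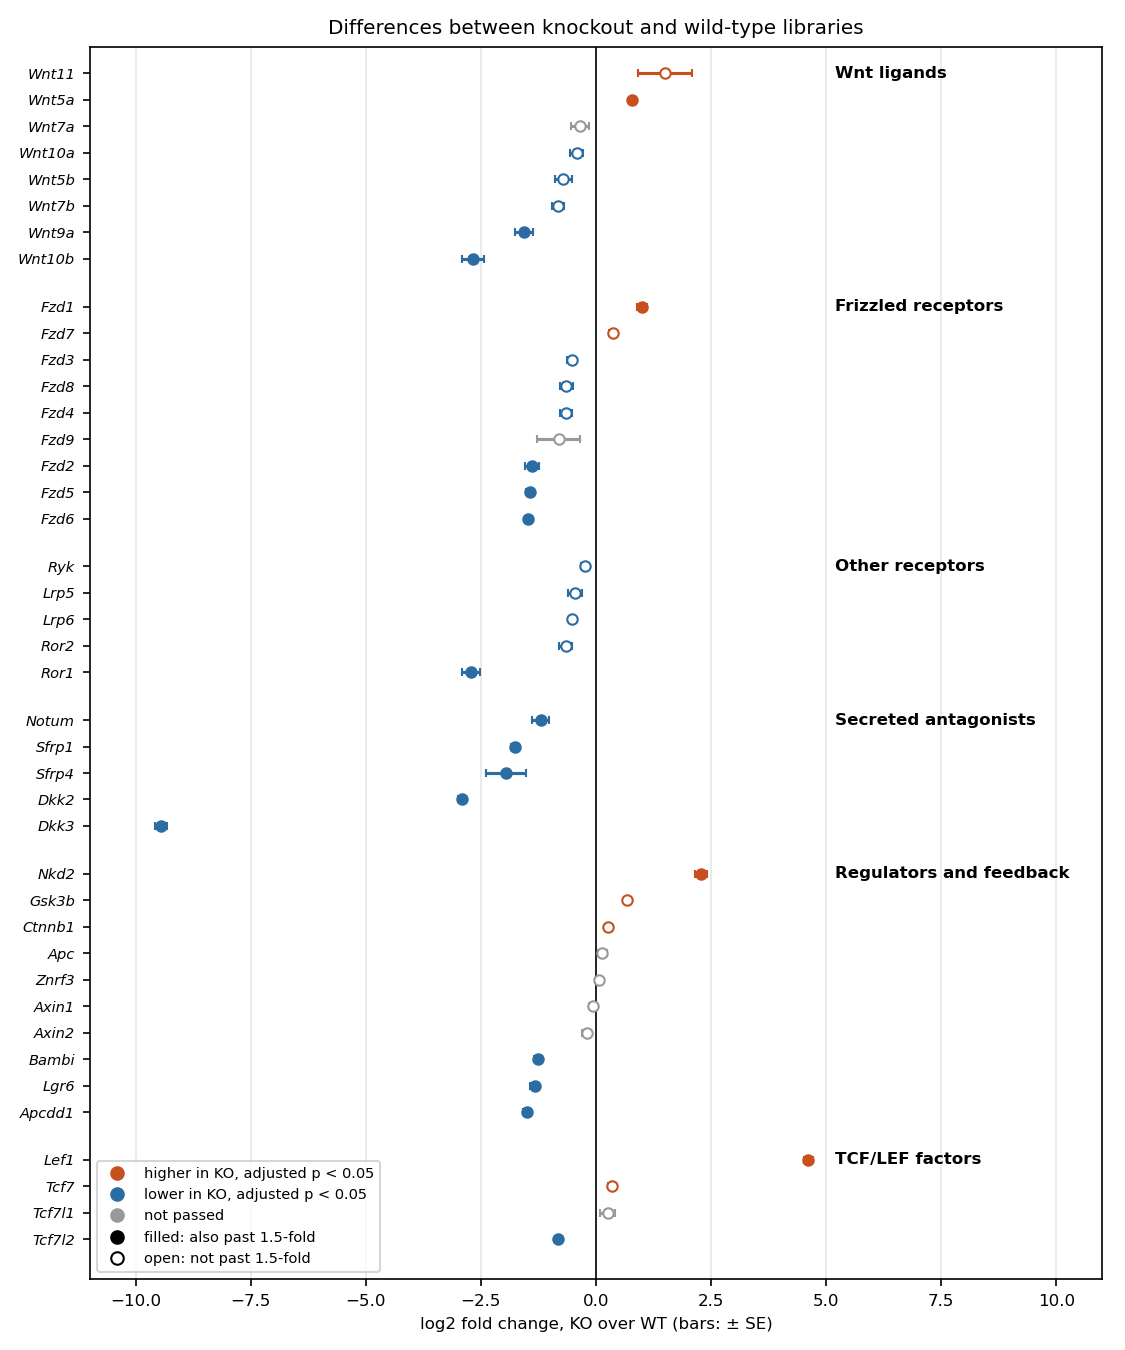
Log2 fold change, KO over WT, of the 41 tested members with bars for ± SE, coloured by call and filled where the member also passed 1.5-fold. The 5 secreted antagonists all lie left of 0, from Notum at -1.20 to Dkk3 at -9.45, and Lef1 lies farthest right at 4.61.

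Of the destruction complex and its target, Ctnnb1 and Gsk3b rose, while Axin1 and Apc did not pass the test. Ctnnb1, which encodes beta-catenin, had 722, 750.1 and 760.1 CPM in the KO libraries, against 606, 621 and 620.0 CPM in the WT libraries, a small rise without overlap (log2 fold change 0.27, SE 0.06, adjusted p = 0.00313). Of its exon bases, 14.6% lie over exons of Ulk4 on the other strand, and Ulk4 had 352 counts in KO and 331 in WT libraries. Gsk3b, the kinase that marks beta-catenin for breakdown, had 330.2, 289 and 289 CPM in the KO libraries, against 190.3, 193 and 187 CPM in the WT libraries and rose (log2 fold change 0.67, SE 0.07, adjusted p = 4.69e-05). Neither gene passed 1.5-fold. Axin1, the scaffold of the complex, had 79.2, 96.2 and 94.9 CPM in the KO libraries, against 86.6, 100.4 and 95.2 CPM in the WT libraries, and the groups overlapped (log2 fold change -0.06, SE 0.09, adjusted p = 0.584). Apc, the other scaffold, had 176, 152 and 142 CPM in the KO libraries, against 149, 142 and 138 CPM in the WT libraries, overlapping as well (log2 fold change 0.14, SE 0.09, adjusted p = 0.196). With the replicate number as a block Apc passed (log2 fold change 0.13, adjusted p = 0.0078), with differences within libraries of the same number of 0.24, 0.10 and 0.04.

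Of the negative feedback genes Axin2, Znrf3 and Nkd2, only Nkd2 passed the test. Axin2, the most widely used readout of beta-catenin signalling, had 5.02, 5.0 and 4.60 CPM in the KO libraries, against 5.25, 5.76 and 5.77 CPM in the WT libraries. The 3 KO libraries lay just below the WT libraries, and the difference did not pass (log2 fold change -0.20, SE 0.10, adjusted p = 0.124), with adjusted p from 0.0473 without both libraries numbered 1 to 0.322 over its alternatives. Znrf3, a ubiquitin ligase that removes Frizzled from the membrane, had 38.9, 39.4 and 37.7 CPM in the KO libraries, against 35.4, 37.1 and 38.2 CPM in the WT libraries, which overlapped (log2 fold change 0.07, SE 0.07, adjusted p = 0.415). Nkd2, a Naked cuticle protein that binds Dishevelled, had 13.3, 15.8 and 16.7 CPM in the KO libraries, against 2.96, 3.11 and 3.40 CPM in the WT libraries, and was 4.85-fold higher in KO (log2 fold change 2.28, SE 0.12, adjusted p = 5.67e-07). The KO libraries of Nkd2 were all several times above the WT libraries, while its paralog Nkd1 had 1 count in KO and 0 in WT libraries. Rnf43, the paralog of Znrf3, was below the filter with 20 counts in KO and 3 in WT libraries, a KO over WT ratio of 7.21 (95% counting interval 2.14 to 37.9).

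The membrane regulators Apcdd1, Bambi and Lgr6 fell together, each past 1.5-fold. Apcdd1, a membrane glycoprotein that inhibits Wnt signalling, had 13.2, 12.6 and 13.9 CPM in the KO libraries, against 35.0, 39.6 and 37.5 CPM in the WT libraries (log2 fold change -1.5, SE 0.08, adjusted p = 8.4e-07). Bambi, a pseudoreceptor of the TGF-beta family that is also tied to Wnt signalling, had 12.8, 14.7 and 14.7 CPM in the KO libraries, against 31.5, 33.9 and 35.4 CPM in the WT libraries (log2 fold change -1.26, SE 0.09, adjusted p = 3.8e-06). Lgr6, a receptor for R-spondins, had 3.81, 4.61 and 4.14 CPM in the KO libraries, against 10.4, 10.7 and 10.5 CPM in the WT libraries (log2 fold change -1.33, SE 0.10, adjusted p = 5.9e-06). No KO library of these genes overlapped a WT library. Lgr5 had 0 counts in KO and 1 in WT libraries. Of the 10 tested regulators and feedback genes, 3 rose, 3 fell and 4 did not pass, and the median log2 fold change was 0.00.

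Of the 4 TCF/LEF factors, which carry beta-catenin to DNA, 2 rose, 1 fell and 1 did not pass, with a median of 0.30 on the log2 scale. Their called share was 75.0%, against 64.0% of all genes. Lef1 (ENSMUSG00000027985.14; chromosome 3, 131110471 to 131224356, plus strand, GRCm38) had 37.8, 38.7 and 38.0 CPM in the KO libraries, against 1.51, 1.68 and 1.49 CPM in the WT libraries. All 3 KO libraries were alike and lay far above the WT libraries, a 24.5-fold higher level (log2 fold change 4.61, SE 0.10, adjusted p = 4.1e-09). Of its exon bases, 13.7% lie over exons of Gm43352 on the other strand, and that gene had 110 counts in KO and 16 in WT libraries. Tcf7l2 had 24.8, 24.7 and 24.9 CPM in the KO libraries, against 43.9, 44.9 and 42.2 CPM in the WT libraries and fell past 1.5-fold (log2 fold change -0.82, SE 0.07, adjusted p = 9.22e-06). Tcf7 had 34.6, 35.7 and 35.9 CPM in the KO libraries, against 26.7, 28.8 and 28.3 CPM in the WT libraries, a small rise (log2 fold change 0.34, SE 0.07, adjusted p = 0.00241). Tcf7l1, known mainly as a repressor, had 6.90, 8.0 and 8.53 CPM in the KO libraries, against 5.13, 7.26 and 7.40 CPM in the WT libraries, with overlapping groups (log2 fold change 0.25, SE 0.16, adjusted p = 0.192). With the replicate number as a block Tcf7l1 passed (log2 fold change 0.25, adjusted p = 0.0149), its differences within libraries of the same number being 0.43, 0.14 and 0.21.

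Per kilobase, Tcf7 led the 4 factors in both groups, at 13.5 ± 0.261 in KO and 10.6 ± 0.427 CPM per kilobase in WT libraries. Lef1 came second in KO libraries, at 4.35 ± 0.0538, and last in WT libraries, at 0.177 ± 0.0120 CPM per kilobase. Its share of the summed TCF/LEF level was 18.8% to 19.5% in KO and 0.957% to 1.05% in WT libraries. The share of Tcf7l2 was 12.3% to 12.8% in KO and 27.2% to 30.1% in WT libraries, and that of Tcf7 differed by less, at 59.5% to 59.7% in KO and 60.5% to 61.1% in WT libraries. No neighbours in the order of the 4 overlapped in either group.

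Since the members include the factors that bind DNA and genes those factors are known to act on, the RefSeq promoter windows of the members (GRCm38.p6, 250 bases before to 50 after a start site) were searched for the TCF/LEF letters CTTTGAA and CTTTGAT on both strands. Of 61 members, 40 had a window, 50 windows in all. Of these 50, 3 (6.00%) held a match, in Wnt5b, Wnt11 and Dkk1, against 8.65% of 32851 windows of all genes. A window counted once whatever its number of matches, and the forward and reverse forms of CTTTGAT can overlap at their ends. The 4 windows printed belong to the 2 tested members with the largest rises, Lef1 (chr3:131110047-131110346, plus strand, 1 of its 4 windows) and Nkd2 (chr13:73847582-73847881, minus strand), to Dkk2 (chr3:132085042-132085341, plus strand), the tested member with the lowest fold change that has a window, and to Wnt5b (chr6:119449337-119449636, minus strand, 1 of 3 windows), a lowered ligand with a match. Sequences are written 5′ to 3′ along the gene, and capitals mark the match.
Lef1: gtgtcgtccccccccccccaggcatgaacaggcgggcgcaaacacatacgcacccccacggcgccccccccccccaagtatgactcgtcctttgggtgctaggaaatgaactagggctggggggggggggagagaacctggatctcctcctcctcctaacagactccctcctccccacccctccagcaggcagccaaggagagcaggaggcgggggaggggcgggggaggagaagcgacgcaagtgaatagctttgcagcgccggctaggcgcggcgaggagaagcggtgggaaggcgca
Nkd2: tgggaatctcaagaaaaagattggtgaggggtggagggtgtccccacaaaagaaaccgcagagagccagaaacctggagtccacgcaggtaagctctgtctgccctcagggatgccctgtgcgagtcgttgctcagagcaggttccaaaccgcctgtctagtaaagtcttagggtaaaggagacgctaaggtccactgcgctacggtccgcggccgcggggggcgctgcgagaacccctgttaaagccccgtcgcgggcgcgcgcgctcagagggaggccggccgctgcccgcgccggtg
Dkk2: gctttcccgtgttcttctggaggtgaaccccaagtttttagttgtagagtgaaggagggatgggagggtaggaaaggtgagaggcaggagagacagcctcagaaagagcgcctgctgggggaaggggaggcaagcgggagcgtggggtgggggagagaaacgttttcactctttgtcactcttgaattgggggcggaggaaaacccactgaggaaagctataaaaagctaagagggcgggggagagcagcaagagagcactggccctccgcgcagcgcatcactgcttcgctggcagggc
Wnt5b: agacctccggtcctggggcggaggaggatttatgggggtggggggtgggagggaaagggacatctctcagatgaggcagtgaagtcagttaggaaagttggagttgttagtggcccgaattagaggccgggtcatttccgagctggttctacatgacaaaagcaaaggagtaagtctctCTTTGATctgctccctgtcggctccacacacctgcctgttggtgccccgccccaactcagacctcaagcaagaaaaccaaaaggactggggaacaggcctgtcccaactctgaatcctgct
The match of Wnt5b begins at base 180 of its window, counted from 1 at the 5′ end. None of the Lef1, Nkd2 and Dkk2 windows shown held these letters, which says only that they are not within these 300 bases.

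Genes of the pathway outside the 61 members gave the surroundings of these values, in 7 lists with 113 symbols in the table, of which 97 were tested. In these lists 42 genes were higher, 28 lower and 27 did not pass, or 72.2% called against 64.0% of all genes, and their median log2 fold change was 0.08. Of the 4 tested secretion and R-spondin genes 3 did not pass, so that 25.0% were called, and the list's median was -0.01. Wls, the carrier that brings Wnt proteins to the surface, had 146, 131 and 135 CPM in the KO libraries, against 155, 134 and 134 CPM in the WT libraries, with overlapping groups (log2 fold change -0.03, SE 0.08, adjusted p = 0.732), and Porcn, the enzyme that attaches the lipid (adjusted p = 0.875), and Lgr4, an R-spondin receptor (0.0674), did not pass either. Rspo3, a secreted amplifier of Wnt signalling, rose at a low level, with 0.941, 0.757 and 0.792 CPM in the KO libraries, against 0.0392, 0.0454 and 0.0504 CPM in the WT libraries (log2 fold change 4.14, SE 0.34, adjusted p = 7.81e-06). Its KO libraries were all far above its WT libraries.

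Of 4 tested extracellular antagonists outside the set, 2 fell and 2 did not pass. Trabd2b, a protease that inactivates Wnt proteins, had 0.650, 0.586 and 0.690 CPM in the KO libraries, against 2.62, 3.31 and 3.30 CPM in the WT libraries (log2 fold change -2.25, SE 0.18, adjusted p = 5.98e-06). Cthrc1, a secreted protein that binds Wnt and Frizzled proteins, is in this list but is not established as an antagonist. It had 0 counts in KO and 255 in WT libraries, at least 78.6-fold lower in KO with that group at its floor. Frzb (adjusted p = 0.0614) and Kremen1 (0.0842) did not pass. The median of this list was -1.57 on the log2 scale, also with Cthrc1 at its bound.

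Cytoplasmic transducers were higher for 12 of 24 tested genes, lower for 6 and not called for 6, and their median log2 fold change was 0.20. Together 75.0% were called, against 64.0% of all genes. Tnks, the tankyrase that marks Axin for breakdown, had 429, 388 and 369.8 CPM in the KO libraries, against 192, 186 and 186 CPM in the WT libraries, without overlap (log2 fold change 1.07, SE 0.07, adjusted p = 2.42e-06). Ctnnbip1, an inhibitor that keeps beta-catenin from TCF factors, had 10.9, 13.5 and 13.3 CPM in the KO libraries, against 32.6, 38.7 and 35.7 CPM in the WT libraries (log2 fold change -1.51, SE 0.11, adjusted p = 3.71e-06), and Cby1, which also binds beta-catenin, had 9.28, 9.22 and 9.43 CPM in the KO libraries, against 16.8, 17.3 and 18.9 CPM in the WT libraries (log2 fold change -0.93, SE 0.09, adjusted p = 1.87e-05). All 3 of these genes had KO libraries clear of the WT libraries. Exons of Gm13066 on the other strand cover 25.8% of the Ctnnbip1 exon bases. Dact3, a Dishevelled-binding protein, had 9.08, 12.3 and 11.6 CPM in the KO libraries, against 22.1, 31.0 and 28.1 CPM in the WT libraries (log2 fold change -1.30, SE 0.15, adjusted p = 7.85e-05). Like the other 3 it showed no overlap. Among 18 nuclear cofactors 7 rose, 4 fell and 7 did not pass, with a median of 0.05. Their called share of 61.1% lay near the 64.0% of all genes. Tle3, a Groucho corepressor, had 109, 135 and 132 CPM in the KO libraries, against 45.5, 62.6 and 56.8 CPM in the WT libraries (log2 fold change 1.19, SE 0.13, adjusted p = 4.41e-05), whereas its paralog Tle1 had 72.3, 81.6 and 79.8 CPM in the KO libraries, against 115, 132 and 126 CPM in the WT libraries (log2 fold change -0.67, SE 0.08, adjusted p = 8.42e-05).

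Planar polarity genes split evenly: 6 of 15 rose, 7 fell, 2 were not called, and the median was 0.00. The called share was 86.7%, against 64.0% of all genes. Vangl1, a membrane protein of that branch, had 30.9, 31.7 and 31.6 CPM in the KO libraries, against 55.4, 60.2 and 58.6 CPM in the WT libraries (log2 fold change -0.89, SE 0.07, adjusted p = 5.44e-06). The cadherin gene Celsr3 rose at a low level, with 1.30, 2.25 and 1.41 CPM in the KO libraries, against 0.0587, 0.0907 and 0.101 CPM in the WT libraries (log2 fold change 4.29, SE 0.38, adjusted p = 1.28e-05), while its paralog Celsr2 had 0.426, 0.390 and 0.409 CPM in the KO libraries, against 1.49, 1.59 and 1.56 CPM in the WT libraries (log2 fold change -1.91, SE 0.18, adjusted p = 2.32e-05). Daam2, a formin of the same branch, had 0.0672, 0.122 and 0.0511 CPM in the KO libraries, against 1.37, 1.45 and 1.13 CPM in the WT libraries (log2 fold change -4.00, SE 0.32, adjusted p = 6.68e-06).

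Genes known as transcriptional targets of beta-catenin in some tissues were higher for 12 of 21 tested, lower for 6 and not called for 3, and their median log2 fold change was 0.34. In this list 85.7% were called, against 64.0% of all genes. Past 1.5-fold, 8 targets were higher and 5 lower, together 61.9%, against 26.7% of all genes. The 4 with the smallest p-values, Sox4, Vegfa, Sox9 and Fosl1, rose. Sox4, a transcription factor, had 953, 855 and 849 CPM in the KO libraries, against 154, 169 and 158 CPM in the WT libraries (log2 fold change 2.46, SE 0.08, adjusted p = 2.99e-08). Sox9, of the same family, had 173, 189 and 186 CPM in the KO libraries, against 42.5, 51.0 and 49.6 CPM in the WT libraries (log2 fold change 1.94, SE 0.09, adjusted p = 2.03e-07). In both, the KO libraries lay well above the WT libraries. Vegfa, the vessel growth factor, had 366, 375 and 366 CPM in the KO libraries, against 96.3, 104 and 103 CPM in the WT libraries (log2 fold change 1.87, SE 0.06, adjusted p = 5.06e-08). Fosl1, an AP-1 factor, had 409, 481 and 475 CPM in the KO libraries, against 132, 151 and 157 CPM in the WT libraries (log2 fold change 1.63, SE 0.09, adjusted p = 8.72e-07). On the opposite strand, exons of Gm26735 cover 54.6% of the Sox4 exon bases, and exons of Ccdc85b cover 57.2% of those of Fosl1. Since the strand setting is not given, reads of Sox4 and Fosl1 cannot be told apart from those of these partners there. Sox4, Vegfa, Sox9 and Fosl1 also answer to other pathways, and other targets fell. Axin2, a member, did not pass. The cause of these differences was not tested. Of 11 PP2A subunits linked to the pathway, 4 rose, 3 fell and 4 did not pass, with a median of -0.07. The 63.6% called was close to the 64.0% of all genes. Ppp2r5d, a B56 subunit, had 61.8, 69.6 and 65.4 CPM in the KO libraries, against 119.6, 134 and 133 CPM in the WT libraries (log2 fold change -0.97, SE 0.08, adjusted p = 6.56e-06), and Ppp2cb, the other catalytic subunit, had 122, 126 and 125 CPM in the KO libraries, against 87.1, 83.3 and 87.4 CPM in the WT libraries (log2 fold change 0.54, SE 0.06, adjusted p = 6.34e-05).

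**Figure D4:**
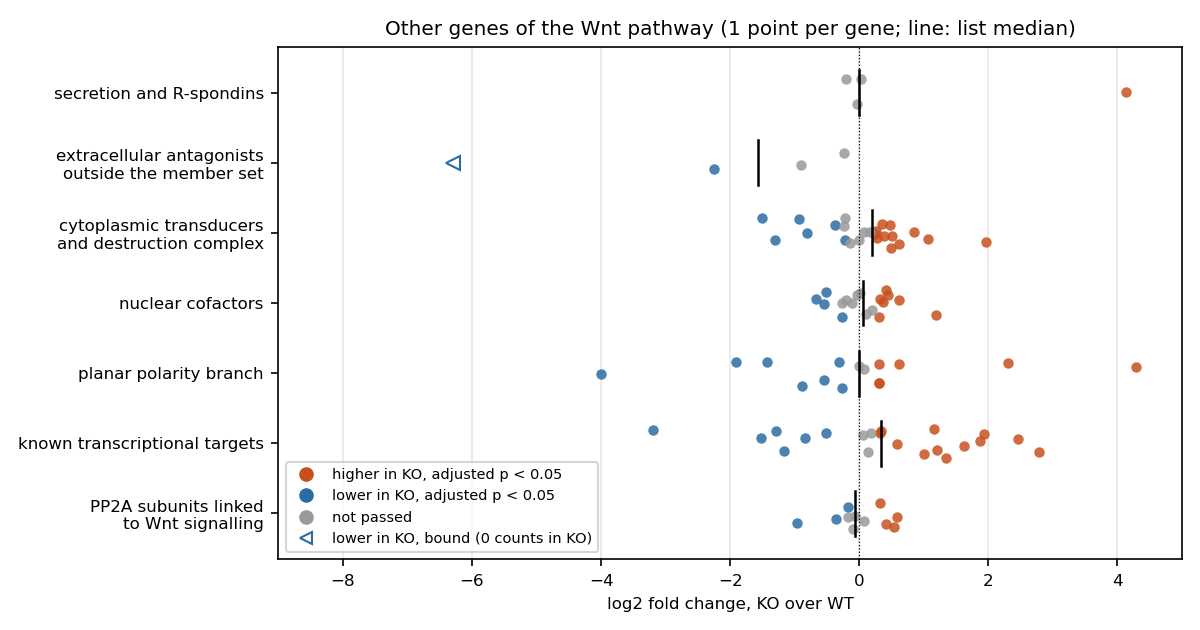
Log2 fold change, KO over WT, of the tested genes in 7 lists of the pathway outside the members, with 1 point per gene coloured by call, a line at each list's median and an open triangle for the bound of Cthrc1. Rspo3 stands alone at 4.14 in the secretion list, and the target list has its median at 0.34.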

How the data were processed

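Poly(A)-selected RNA of 3 KO and 3 WT libraries was analysed. The authors deposited unnormalised read counts for each gene symbol; columns were matched to samples by title, and 0 belonged to other samples. Per the submitters' processing notes, which give no roles, the authors' tools included STAR 2.7.1a and HTSeq 0.11.2, beside fastp 0.20.0, limma 3.48.3 and edgeR 3.34.0; the builds named are mm10 and GRCm38. For the annotation release and strand setting, the sources used here give nothing.

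The filterByExpr function of edgeR 4.0.16 (R 4.3.3) left 14877 genes, which were scaled by TMM (factors 0.967 to 1.035) and compared by the quasi-likelihood F-test (glmQLFit, glmQLFTest) with Benjamini-Hochberg adjustment and a threshold of 0.05. glmTreat tested against a fold change of 1.5. DESeq2 1.42.0 was an alternative. The code was tested on simulated data. The SE came from the fold change and F statistic. Ratios of low counts have 95% exact counting intervals. Exon lengths, positions and overlaps came from GENCODE M21 (GRCm38), matched by symbol, and promoter windows from RefSeq (GRCm38.p6).

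Deviations of libraries of the same number correlated at 0.44, 0.16 and 0.15 for numbers 1, 2 and 3, and both libraries numbered 1 stood apart. KO 2 was closer to WT 3 (0.19), and KO 3 was as close to WT 2 (0.15) as to WT 3. A pairing by number would rest on the data alone, and numbers 2 and 3 did not show it. The main fit did not pair libraries, and the number served as a block only in an alternative. No pair of replicates lay within sampling noise (chi-square per degree of freedom 3.41 to 48.4). Members, lists and tests were chosen with earlier results of these data known. All members may be named. Values per library are given for those that are abundant, or called with a large change. From each other pathway list, up to 4 genes with the smallest adjusted p are named.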

Additional observations from a re-analysis of the deposited data

How the results depend on the processing

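Of the 41 tested members, 33 kept their direction and their side of the threshold under each of the 13 alternatives that tested them, and 8 (Wnt10a, Wnt11, Lrp5, Ryk, Axin1, Axin2, Apc and Tcf7l1) did not. The stricter filter left out Wnt11, Fzd9 and Sfrp4, so these were compared under 12. Axin1, which passed in no setting, ranged from -0.12 to 0.04 on the log2 scale when 1 library was left out, with the sign changed without KO 1 (0.04), and the cause was not tested. Axin2 passed with upper-quartile scaling (-0.26, adjusted p = 0.0487) and without both libraries numbered 1 (-0.26, adjusted p = 0.0473). The number of members called was 34 of 41 with DESeq2, with its size factors and with upper-quartile factors, where 63.9% to 64.5% of all genes were called. Without the filter it was 38 of 54 (38.1% of all genes), and with the stricter filter 32 of 38 (68.2%). Without both libraries numbered 1 it was 35 of 41, where 74.6% of all genes were called. With the replicate number as a block it was 36 of 41, where 77.3% of all genes were called. Beside Apc and Tcf7l1 the block changed no other call of a member. Leaving out 1 library at a time gave 31 to 33 of 41 members called, 8 to 9 higher and 23 to 25 lower, and 18 to 21 past 1.5-fold. It gave 61 to 73 called genes of the other lists, and 8457 to 9701 of all genes (55.6% to 63.9%). Upper-quartile factors shifted the median of all genes by less than 0.1 (to -0.072). With few counts, the members below the filter allow no statement beyond their intervals.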
